A study of Mus musculus with 6 samples.

Results

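Small nucleolar RNA genes were compared between mouse hearts with forced expression of a microRNA cluster (miR-302 with miR-367) and control hearts. A gene was taken as a member when its symbol starts with Snora or Snord and a probe of its own, annotated to that single symbol, was in the array table. Where a gene had several such probes, the probe with the highest mean over the 6 arrays was used. This gave 73 genes, 26 Snora and 47 Snord, of 22180 genes tested. The Snord115 group had 0 probes and the Snord116 group had 0 probes of its own, so neither group has a member.

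The transgenic group (Nkx2.5-Cre; R26R-miR302-367, 3 arrays) carries the microRNA cluster at the Rosa26 locus, switched on by Cre. The control group (Nkx2.5-Cre, 3 arrays) carries the Cre allele without the cluster, so both groups have the Nkx2.5-Cre allele. Nkx2.5-Cre acts in cardiac progenitors and the cells that descend from them, and heart cells of other origins need not express the cluster. All mice were of a mixed C57BL/6 x 129S6 background. The source name and the harvest protocol place the hearts at postnatal day 14, while the age field reads embryonic day 14, and the labels do not settle this. Nothing in the labels says that the 3 samples of a group came from separate animals, so p-values measure only the variation among the samples at hand, and that variation may be technical.

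Small nucleolar RNAs guide the chemical modification of other RNAs in the nucleolus, above all ribosomal RNA. Box C/D RNAs, named Snord, pair with their target and place ribose methyl groups through a complex that contains fibrillarin. H/ACA RNAs, named Snora, direct the change of uridine to pseudouridine through a complex that contains dyskerin. A few of either class instead help to cut the ribosomal RNA precursor. In mammals most are not transcribed alone: they lie in introns of host genes, many of which encode ribosomal proteins or translation factors, and are released when the spliced intron is trimmed. Mature small nucleolar RNAs carry no poly(A) tail. The labelling began from 100 ng of RNA primed with a poly(T) oligomer, per the labels' protocols, and the array does not separate a mature RNA from precursor or intron sequence, so a value below is the signal of a probe and not the amount of mature RNA. Deposited values are on a log2 scale, so that a difference of 1 is a doubling, and no order of abundance is read between probes of different genes.

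The labels were checked on the cluster itself: all 5 of its measured genes were higher in transgenic hearts, with log2 differences of 2.99 to 6.61. Within-group correlations of the arrays over all genes were 0.982 to 0.989 and those between groups 0.974 to 0.983, and array medians were 5.45 to 5.54. The heart label was borne out by 6 cardiomyocyte markers, whose mean log2 signal was 12.91 to 12.94 on transgenic arrays and 12.93 to 12.97 on control arrays, with 0 of 6 past the threshold. All 5 measured proliferation markers were higher, with a mean log2 signal of 7.45 to 7.60 on transgenic arrays against 6.72 to 6.82 on control arrays. Endothelial markers (4 of 6 lower) had a mean of 9.07 to 9.30 on transgenic arrays against 9.53 to 9.62 on control arrays, and macrophage markers (4 of 6 lower) had 6.21 to 6.47 against 6.97 to 7.07. Fibroblast markers (0 of 6 called) and the 2 measured erythroid markers (0 called) had log2 means of 9.0 to 9.12 and 5.82 to 5.88 on transgenic arrays, against 8.91 to 9.11 and 5.65 to 5.92 on control arrays. Of 6 neuronal markers 1 was lower, and their log2 mean was 5.09 to 5.19 on transgenic arrays against 5.13 to 5.28 on control arrays. Over all genes tested 5.35% were called higher and 5.76% lower at an adjusted p under 0.05 in limma, the threshold of these marker counts. The part of these marker differences in the results below was not tested, and in whole hearts fewer cells of a type and less RNA per cell cannot be told apart.

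The control 3 array stood apart from the other controls for the small nucleolar RNA genes. It was the lowest of the 6 arrays for 45 of 73 members, whereas over all genes tested it was the lowest for 4614 of 22180. The median deviation of the members from their own means was 0.17, 0.13 and 0.12 on the log2 scale on transgenic arrays 1 to 3, against -0.07, -0.06 and -0.38 on control arrays 1 to 3. All 3 transgenic medians were thus above all 3 control medians, and the gap was widest against control 3. The main counts, medians and correlations over the members and their hosts are therefore also given without that array. Other gene lists below are over all 6 arrays unless stated otherwise.

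**Figure D1:**
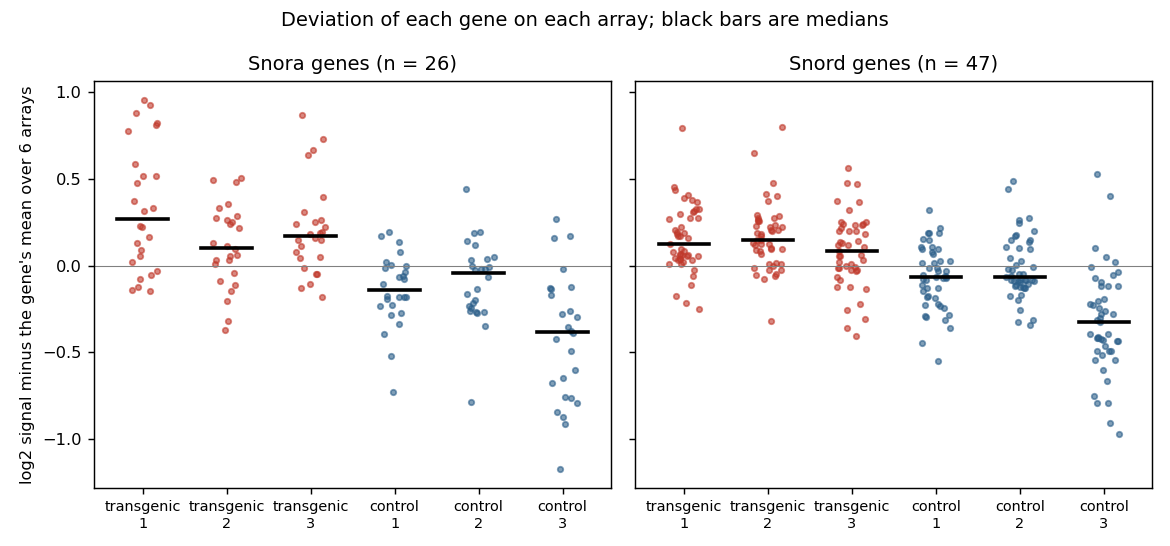
Log2 signal of each gene on each array minus that gene's mean over the 6 arrays (y axis), for 26 Snora genes (left) and 47 Snord genes (right), with transgenic arrays 1 to 3 before control arrays 1 to 3 (x axis). Points are genes and black bars are medians; the control 3 array has the lowest median in both classes, -0.39 for Snora and -0.32 for Snord genes.

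Small nucleolar RNA genes tended to have higher signal in transgenic hearts. Of the 73 members 11 were higher and 0 lower at an adjusted p under 0.05 (limma, adjusted over all genes tested). That is 15.1% of the members, where 5.35% of all genes were called higher and 5.76% lower. The median log2 difference of the members was 0.28, a 1.21-fold difference, beside a median of -0.03 over all genes, and their middle 50% lay between 0.12 and 0.44. A log2 difference above 0 was found for 65 of 73 members, against 43.3% of all genes. At an unadjusted p under 0.05, 32 members were higher and 0 lower, against 11.9% of all genes higher. For 31 members every transgenic array was above every control array, against 14.2% of all genes, and for 0 members every transgenic array was below every control array, against 16.7% of all genes. Without control 3, 8 members were called higher (11.0%, against 4.37% of all genes) and 0 lower, and 59 of 73 were above 0 (46.1% of all genes), with a median of 0.221. At an unadjusted p under 0.05, 28 were then higher (11.4% of all genes) and 1 lower, and 32 lay above both remaining controls on every transgenic array (18.9% of all genes) and 2 below them (23.5%). The count of calls depended on single arrays. It was 3 (4.11% of members) without transgenic 1 and 3 without control 1, where 2.59% and 2.97% of all genes were called higher, so the members' share was then near that of all genes. It was 6 (8.22%) without transgenic 3 and 7 (9.59%) without transgenic 2, where 3.35% and 2.57% of all genes were called higher.

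The 2 classes leaned the same way, with differences of unlike size. Among the 26 Snora genes 6 were called higher (23.1%), 22 had a difference above 0, and the median log2 difference was 0.43 (1.35-fold), with a range of -0.23 to 0.98. Among the 47 Snord genes 5 were called higher (10.6%), 43 had a difference above 0, and the median was 0.26 (1.20-fold), with a range of -0.26 to 0.98. Over all genes 5.35% were called higher and 43.3% were above 0. Without control 3 the medians were 0.309 for Snora and 0.188 for Snord genes, 3 Snora (11.5%) and 5 Snord genes (10.6%) were called higher, and 22 and 37 had a difference above 0. The called shares of the classes were then close to each other, and over all genes 4.37% were called higher and 46.1% were above 0. Median log2 signal over the Snora genes was 8.25, 7.93 and 7.86 on transgenic arrays against 7.39, 7.64 and 7.12 on control arrays, so the groups did not overlap. Over the Snord genes it was 6.85, 6.87 and 6.93 on transgenic arrays against 6.66, 6.82 and 6.41 on control arrays, where transgenic 1 was only slightly above control 2. Of the Snord genes 10 lay in the lowest-signal tercile of all genes tested, against 2 of the Snora genes. Whether the classes differ was not tested, since the genes of a class are not replicates.

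**Figure D2:**
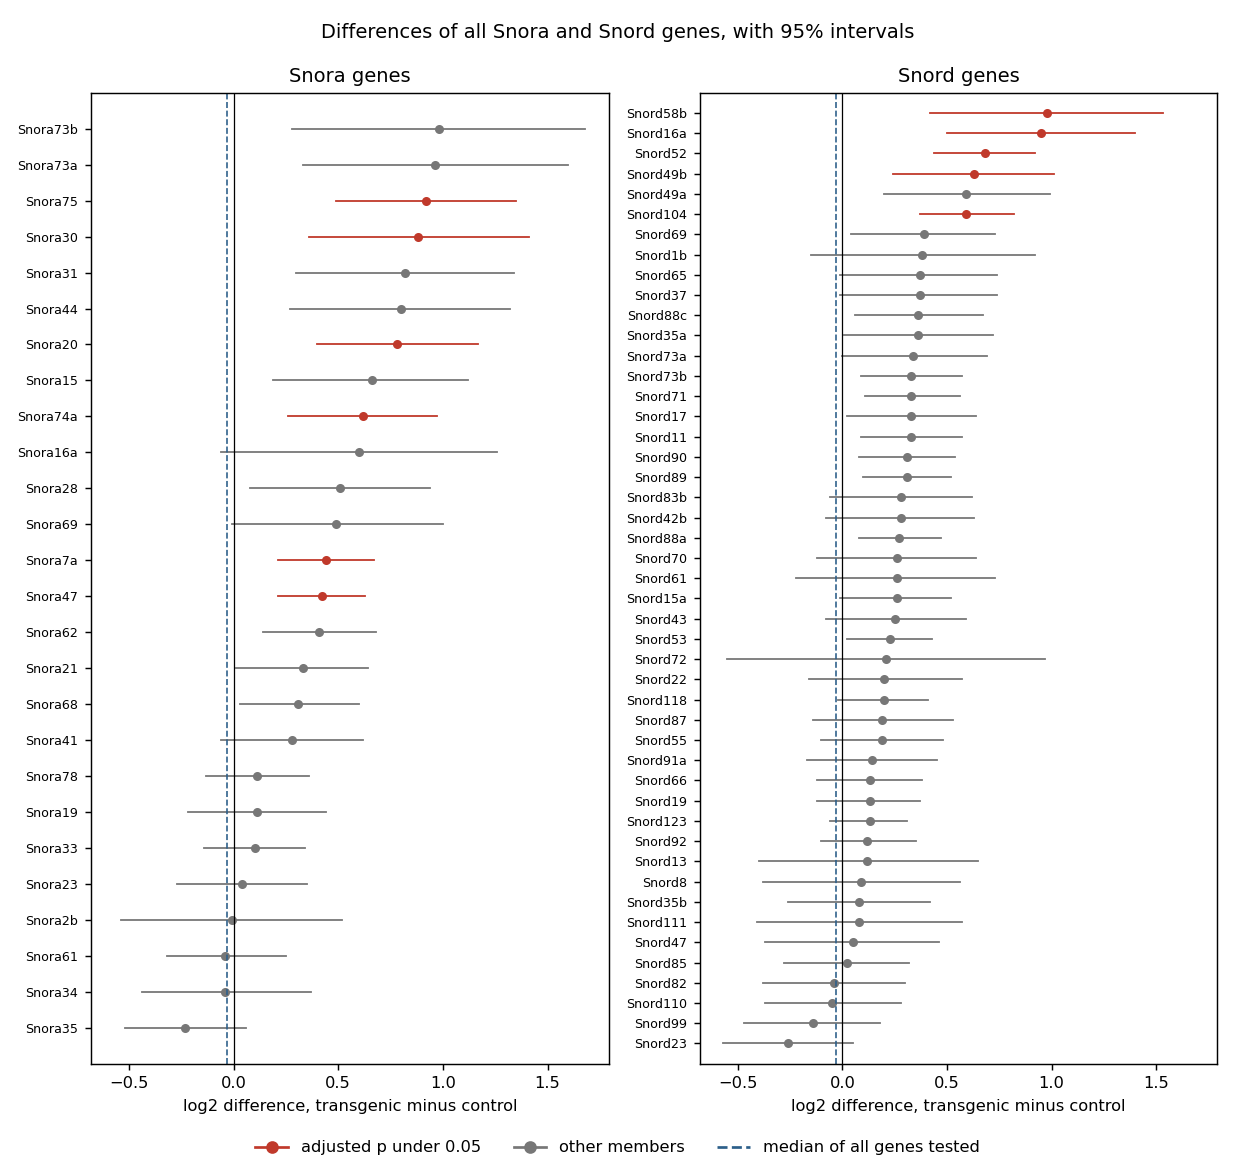
Log2 difference, transgenic minus control, with its 95% interval for each of the 26 Snora genes (left) and 47 Snord genes (right), ordered by size; red marks an adjusted p under 0.05 and the dashed line the median of all genes tested, -0.03. Of the 73 points 65 lie above 0, and the 8 below 0 reach no further than -0.26.

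Box C/D genes are taken first. Snord52 had log2 signals of 5.60, 5.60 and 5.80 in transgenic hearts, against 4.88, 5.15 and 4.93 in control hearts. Its log2 difference was 0.68 ± 0.11 (SE, n = 3 each), 1.6-fold, with an adjusted p of 0.0049 in limma. The groups did not overlap, and the gap between them was larger than the spread inside either. Snord104 had 9.97, 9.72 and 9.75 in transgenic hearts, against 9.27, 9.26 and 9.12 in control hearts, a log2 difference of 0.59 ± 0.10 (adjusted p = 0.00719). These 2 genes kept their call under all 13 alternative settings tried, with an adjusted p of 0.00255 to 0.0239 for Snord52 and 0.000844 to 0.0311 for Snord104.

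Snord58b, which lies in the ribosomal protein gene Rpl17, had log2 signals of 5.73, 5.59 and 4.96 in transgenic hearts, against 4.58, 4.81 and 3.97 in control hearts. The lowest transgenic value was above the highest control value by a small margin, and the log2 difference was 0.98 ± 0.25 (SE), with an adjusted p of 0.037. Its call was lost without transgenic 1 or 2 or control 1 or 3, where the adjusted p reached 0.13. Snord16a, in Rpl4, had 7.95, 8.36 and 7.80 in transgenic hearts, against 7.01, 7.48 and 6.77 in control hearts, a log2 difference of 0.95 ± 0.20 (adjusted p = 0.0175). The transgenic values were all higher, and within each group the array numbered 2 was the highest; the call was lost without transgenic 1, transgenic 2 or control 1. Snord49b had 9.85, 10.06 and 10.33 in transgenic hearts, against 9.62, 9.64 and 9.10 in control hearts, a log2 difference of 0.63 ± 0.17 (adjusted p = 0.0475). This call had the highest adjusted p of the 11: it was kept under 5 of 13 settings and lost whichever array was left out.

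Among the H/ACA genes, Snora75, in the gene for nucleolin, had 8.08, 7.74 and 7.34 in transgenic hearts, against 6.53, 7.0 and 6.87 in control hearts. Its log2 difference was 0.92 ± 0.19 (SE), 1.89-fold, with an adjusted p of 0.0168. Snora30 had 7.94, 7.04 and 7.29 in transgenic hearts, against 6.80, 6.2 and 6.63 in control hearts, a log2 difference of 0.88 ± 0.23 (adjusted p = 0.043). The groups of both genes were apart, and in Snora30 transgenic 1 was well above the other transgenic arrays. Both calls were lost without transgenic 1, and without control 1. The call of Snora75 was also lost without transgenic 2, and that of Snora30 without transgenic 3, control 2 or control 3 and after quantile normalization. Snora20, in the chaperonin gene Tcp1, had 6.18, 6.17 and 5.81 in transgenic hearts, against 5.49, 5.43 and 4.90 in control hearts, a log2 difference of 0.78 ± 0.17 (adjusted p = 0.0211).

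Snora74a had log2 signals of 8.42, 8.23 and 8.86 in transgenic hearts, against 7.86, 8.03 and 7.77 in control hearts, and its log2 difference was 0.62 ± 0.16 (adjusted p = 0.0374). Snora7a, in the ribosomal protein gene Rpl32, had 8.66, 8.59 and 8.89 in transgenic hearts, against 8.31, 8.28 and 8.23 in control hearts, a log2 difference of 0.44 ± 0.10 (adjusted p = 0.0258). Its control values lay within 0.1 of each other and below every transgenic value. Snora47 had 6.65, 6.85 and 6.81 in transgenic hearts, against 6.33, 6.29 and 6.44 in control hearts, a log2 difference of 0.42 ± 0.094 (adjusted p = 0.0237). Leaving out single arrays, quantile normalization or the replicate block ended the calls of Snora74a, Snora7a and Snora47 under 5 or 6 of the 13 settings each, with adjusted p-values up to 0.102, and that of Snora20 without transgenic 1 or 2.

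**Figure D3:**
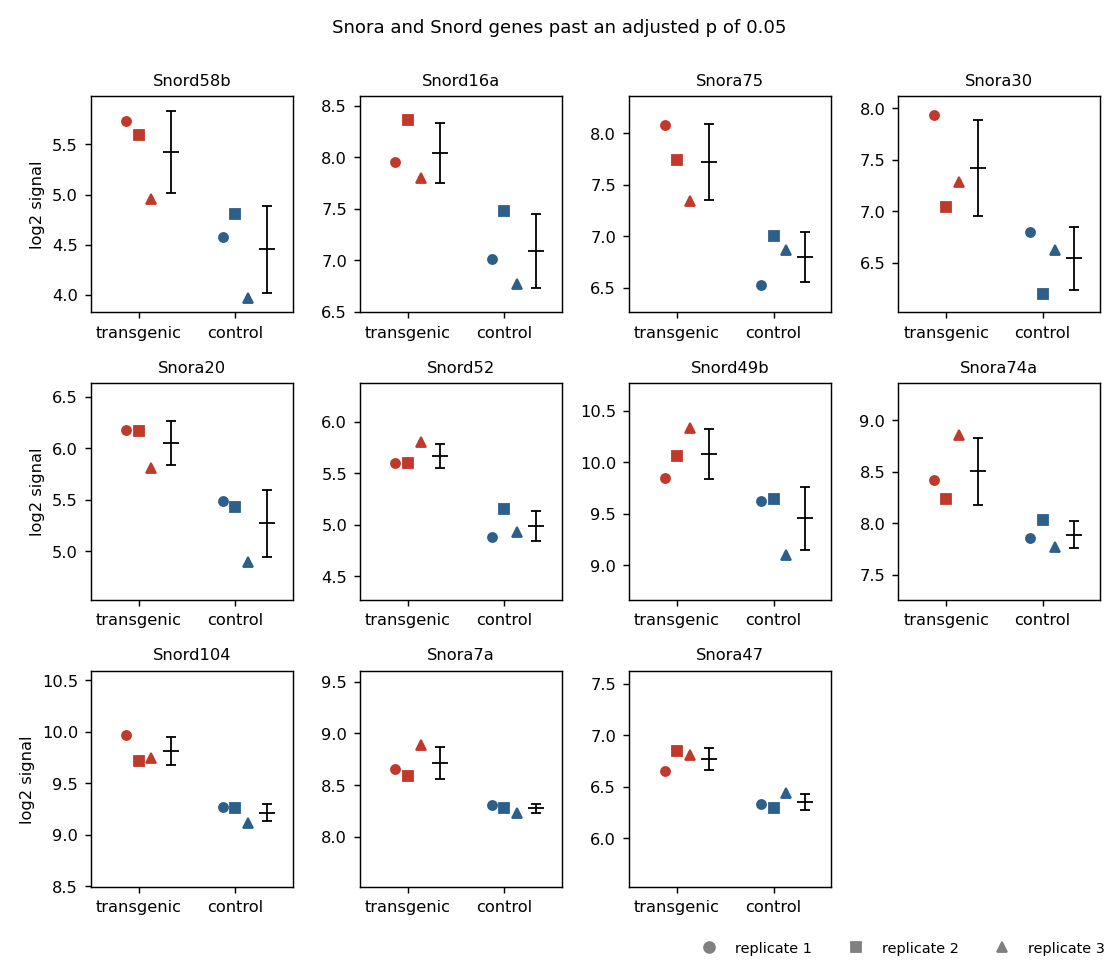
Log2 signal (y axis of each panel, each spanning its own range) of the 11 genes past an adjusted p of 0.05 on 3 transgenic arrays (left, red) and 3 control arrays (right, blue). Markers are arrays and black bars the mean ± SD; in every panel all transgenic points are above all control points, with the narrowest margin for Snord58b.

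Several members had differences as large without passing the test. Snora73a and Snora73b, which act in the cutting of the ribosomal RNA precursor rather than as modification guides, are near-identical copies whose signals may not be separable. Snora73a had 9.25, 8.12 and 9.05 in transgenic hearts, against 7.80, 8.19 and 7.53 in control hearts (log2 difference 0.96 ± 0.28 SE, adjusted p = 0.0602). Snora73b had 9.12, 8.20 and 8.88 in transgenic hearts, against 7.97, 8.22 and 7.07 in control hearts (0.98 ± 0.31, adjusted p = 0.079). In both genes transgenic 2 was slightly below control 2, so the groups overlapped. Snora31 had 8.77, 8.21 and 8.23 in transgenic hearts, against 7.60, 8.03 and 7.12 in control hearts, a log2 difference of 0.82 with an adjusted p of 0.0541. Snora44 had 9.49, 8.87 and 9.88 in transgenic hearts, against 8.73, 8.75 and 8.37 in control hearts, a log2 difference of 0.80 with an adjusted p of 0.0593. Neither overlapped between groups.

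The bright probes did not all share the lean. Snord89 had 10.92, 11.02 and 11.04 in transgenic hearts, against 10.77, 10.73 and 10.56 in control hearts, a log2 difference of 0.31 (adjusted p = 0.0675) with no overlap. Snora21 had 10.24, 10.22 and 10.37 in transgenic hearts, against 10.05, 10.16 and 9.62 in control hearts, a log2 difference of 0.33 (adjusted p = 0.178). Snora15 had 9.26, 9.10 and 8.86 in transgenic hearts, against 8.67, 8.68 and 7.90 in control hearts, a log2 difference of 0.66 (adjusted p = 0.0776). None of these 3 passed the test, and in Snora21 and Snora15 the control 3 value was the lowest by a clear margin. Snord82 had 10.52, 10.61 and 10.26 in transgenic hearts, against 10.67, 10.65 and 10.18 in control hearts, with a 95% interval of the log2 difference of -0.38 to 0.30. Snord13, which unlike most has a promoter of its own, had 10.02, 9.95 and 9.80 in transgenic hearts, against 9.80, 10.35 and 9.26 in control hearts, with an interval of -0.40 to 0.65. Snora23 had 9.74, 9.52 and 9.33 in transgenic hearts, against 9.53, 9.27 and 9.68 in control hearts, with an interval of -0.27 to 0.35. These 3 overlapped widely between the groups, and the intervals hold differences in either direction.

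Snora33 had 2 probes of its own that did not give the same picture. The brighter probe, used here, read 10.62, 10.90 and 10.93 in transgenic hearts, against 10.77, 10.75 and 10.64 in control hearts, a log2 difference of 0.10 (adjusted p = 0.621). The dimmer probe read 5.84, 5.49 and 5.47 in transgenic hearts, against 5.28, 5.23 and 4.69 in control hearts, a log2 difference of 0.54 (adjusted p = 0.171 over all probes). The dimmer probe's groups did not overlap while the brighter probe's did, and neither passed the test.

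The 8 members with a difference below 0 were small in size, and 0 of them passed the test. Snord23 had 8.98, 9.22 and 9.11 in transgenic hearts, against 9.34, 9.11 and 9.63 in control hearts, a log2 difference of -0.26 (adjusted p = 0.282). Snora35, which lies in the serotonin receptor gene Htr2c and is known from brain, had 5.58, 5.33 and 5.85 in transgenic hearts, against 5.78, 5.82 and 5.86 in control hearts, a difference of -0.23 (adjusted p = 0.30). Snord99 was at -0.14, Snord110 at -0.05, Snora61, Snora34 and Snord82 at -0.04 each and Snora2b at -0.01. All 8 overlapped between the groups.

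Most members lie inside another gene. By gene spans in the RefSeq annotation 70 of 73 lay within a longer gene, taken here as the host, and Snord118, Snord13 and Snord89 did not. The spans give 56 distinct hosts, of which 43 were measured. Of the measured hosts 8 were higher and 1 lower, 37 had a log2 difference above 0, and their median was 0.22. Over all genes 5.35% were called higher and 5.76% lower, 43.3% were above 0, and the median was -0.03. The 20 members in long noncoding hosts had a median log2 difference of 0.38 with 4 called, the 18 in ribosomal protein genes 0.32 with 3 called, and the 32 in other protein-coding genes 0.26 with 4 called. All 18 members in ribosomal protein genes had a difference above 0. Without control 3 the medians were 0.34, 0.22 and 0.20 in the same order of hosts, with 4, 1 and 3 members called. Of the 18 in ribosomal protein genes 16 were then above 0. Of the measured hosts 5 were then higher and 1 lower, 36 were above 0, and their median was 0.17. Over all genes 4.37% were then called higher and 46.1% were above 0.

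Member and host mostly shared the sign of the difference but not its size. Of the 57 members with a measured host, 47 were above 0 together with the host, 6 were below 0 together with it, and 4 had opposite signs. Most members and most measured hosts were above 0, so many pairs would share a sign without any link between member and host. Pearson's r between the log2 differences of member and host was 0.32 and Spearman's rho 0.31 over these 57 points, which share arrays, and some of which share a host. Without control 3, 42 were above 0 together with the host, 5 below 0 together with it and 10 of opposite sign, with r at 0.25 and rho at 0.27. Of the 10 called members with a measured host 1 had a host that was called too, and 11 members that were not called lay in hosts that were called higher; without control 3 these counts were 1 of 6 and 6. The long noncoding host 2410006H16Rik was called (9.72, 9.58 and 9.53 in transgenic hearts, against 8.93, 9.24 and 8.57 in control hearts, log2 difference 0.69, adjusted p = 0.025). Its members Snord49b, Snord49a and Snord65 had differences of 0.63, 0.59 and 0.37, and of these Snord49b was called. Snhg3, the host of Snora73a and Snora73b, had 8.15, 7.75 and 7.71 in transgenic hearts, against 7.19, 7.55 and 6.99 in control hearts (log2 difference 0.63, adjusted p = 0.0436).

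Other hosts and their members went apart. Ncl, which encodes nucleolin, had a log2 difference of -0.01, with 8.99, 8.95 and 8.91 in transgenic hearts against 8.97, 9.0 and 8.90 in control hearts. It holds both Snora75, at 0.92, and Snord82, at -0.04. Snhg12, at 0.28 (adjusted p = 0.291), holds Snora44 at 0.80, Snora16a at 0.60, Snora61 at -0.04 and Snord99 at -0.14. Snhg1 was called (8.94, 8.94 and 8.71 in transgenic hearts, against 7.91, 8.07 and 7.69 in control hearts, log2 difference 0.97, adjusted p = 0.0018), and its measured member Snord22 had a difference of 0.20 (adjusted p = 0.497). Rps12, the host of Snora33, was called at 0.68 (adjusted p = 0.00378). Ipo7, which encodes a nuclear import receptor and hosts Snora23, was the 1 host called lower, at -0.47 (adjusted p = 0.00785). Hosts of the called members read 0.24 for Snord52 (1110038B12Rik), 0.08 for Snord16a (Rpl4), 0.52 for Snord58b (Rpl17), 0.17 for Snora30 (Srcap), 0.17 for Snora20 (Tcp1), 0.10 for Snora74a (Snhg4), 0.33 for Snora7a (Rpl32) and 0.06 for Snora47 (Zbed3). None of these 8 hosts passed the test, with adjusted p-values from 0.0563 to 0.696. The host of Snord104, Gm36220, was not measured. Differences of member minus host were not tested.

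**Figure D4:**
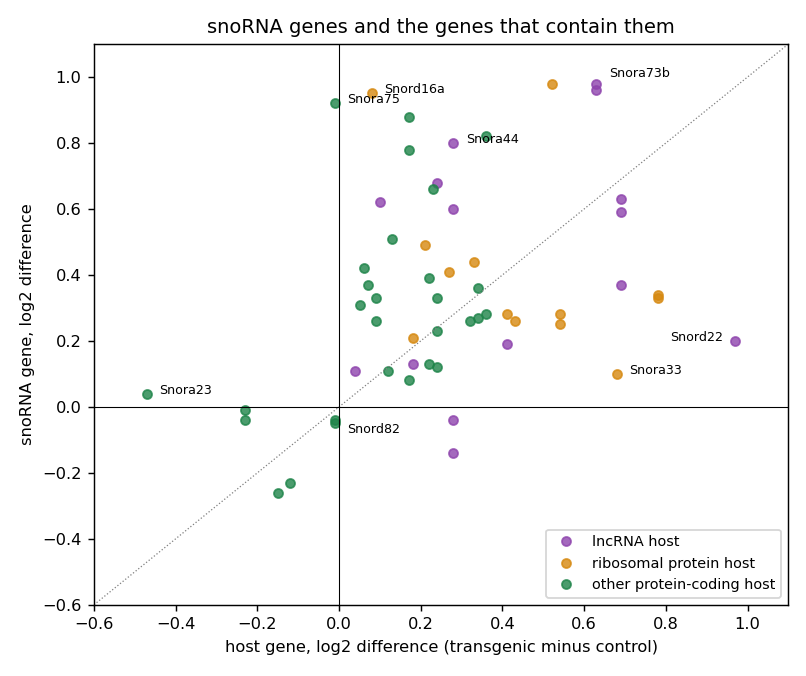
Log2 difference of each small nucleolar RNA gene (y axis) against that of its host gene (x axis), transgenic minus control, for the 57 members with a measured host, coloured by the kind of host; the dotted line marks equal differences. Of the points 47 lie in the region above 0 on both axes, with Snora75 and Snord82 at the same host value and 30 points above the dotted line.

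Host genes of small nucleolar RNAs are known for transcripts that begin in a run of pyrimidines, the feature by which translation of ribosomal protein mRNAs is tied to growth signals. The 30 bases around the annotated start of 7 hosts are shown because their members carry the contrasts above; capitals mark the longest run of C or T on the gene's strand, and each sequence holds 15 bases on either side of the start (RefSeq, GRCm38.p6).
2410006H16Rik, chr11:62602862-62602891, plus strand: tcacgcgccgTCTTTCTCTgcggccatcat
Rpl4, chr9:64173372-64173401, plus strand: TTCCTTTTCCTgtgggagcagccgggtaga
Snhg1, chr19:8723472-8723501, plus strand: gttgttcttgtcggcctcaTTTTTCCTTgt
Snhg12, chr4:132308663-132308692, plus strand: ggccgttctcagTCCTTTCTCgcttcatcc
Snhg3, chr4:132353672-132353701, minus strand: tagtcgaccacgcctgaCTTCCgggcgtta
1110038B12Rik, chr17:34952457-34952486, minus strand: ggcgggcggcacacgggTCTCTTTgtgcac
Ncl, chr1:86359441-86359470, minus strand: ggCTCCggggacggacgcgagctctggttg
A run of at least 8 such letters was found in 11 of 44 host windows (25%), against 3205 of 27025 windows of all genes (11.9%). Only the gene's own strand was searched, and a match is a description of the letters. A run was counted anywhere in the window, so it need not lie at the start of the transcript. The run of Rpl4 ends before the annotated start and that of Snhg1 begins after it, while those of 2410006H16Rik and Snhg12 span it. Of 11 windows read for hosts of called members, hosts with 3 or more members and called noncoding hosts, 4 hold such a run. These are the windows of Snhg1 and 2410006H16Rik, which were called, and of Rpl4 and Snhg12, which were not. Not among the 11 are the windows of Rpl17, Snhg4 and Rpl32, which also host called members. The called host Snhg3 has a shorter run, as have Ncl, 1110038B12Rik, Gm36220, Srcap, Tcp1 and Zbed3.

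The Snord116 genes are box C/D RNAs of the imprinted region on chromosome 7 whose human counterpart is lost in Prader-Willi syndrome, and they have no known ribosomal RNA target. No probe carried a Snord116 symbol alone, but RefSeq gives Snord116 as a synonym of Gm26504, which falls outside the symbol rule. Gm26504 had log2 signals of 9.02, 9.43 and 8.92 in transgenic hearts, against 8.04, 7.99 and 7.38 in control hearts. The groups were separated by more than their own ranges, with a log2 difference of 1.32 ± 0.19 (SE, 95% interval 0.88 to 1.76), 2.49-fold, and an adjusted p of 0.00392. All 15 probes annotated to Gm26504 alone hold the same values and count as 1 measurement. Snhg14, the long host transcript of the region, had 6.80, 6.99 and 7.03 in transgenic hearts, against 6.89, 6.92 and 6.41 in control hearts, and a log2 difference of 0.20 (interval -0.13 to 0.52, adjusted p = 0.443). Ipw, whose span also holds Gm26504, had a difference of 0.40 (adjusted p = 0.149).

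Of the 7 other small nucleolar RNA genes outside the symbol rule, 5 lie in a second imprinted cluster, on chromosome 12, in the host Rian. Of these 5, 3 were higher. AF357425 had 7.88, 8.31 and 8.20 in transgenic hearts, against 7.51, 7.43 and 7.40 in control hearts (log2 difference 0.68, adjusted p = 0.00811). DQ267101 had 4.84, 5.21 and 4.47 in transgenic hearts, against 4.39, 4.07 and 3.88 in control hearts (0.73, adjusted p = 0.0438). DQ267102 had 6.88, 6.85 and 6.87 in transgenic hearts, against 6.35, 6.37 and 6.51 in control hearts (0.46, adjusted p = 0.0112). The groups were apart in all 3, most narrowly in DQ267101. Rian itself was higher, with 7.57, 7.50 and 7.58 in transgenic hearts, against 6.87, 6.96 and 6.60 in control hearts (0.74, adjusted p = 0.00392). AF357355 at 0.64 (adjusted p = 0.209) and AF357426 at 0.23 (adjusted p = 0.519) overlapped between groups. The remaining genes lie outside the imprinted clusters and were not called: AF357399, in Rps16 on chromosome 7, was at -0.04 (adjusted p = 0.884) and Gm12238, in G3bp1 on chromosome 11, at 0.25 (adjusted p = 0.209). Over all 8 genes outside the symbol rule, Gm26504 included, 4 were called higher (50%, against 5.35% of all genes) and 0 lower. Their median log2 difference was 0.55. Without control 3, 3 were called higher (37.5%, against 4.37% of all genes).

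**Figure D5:**
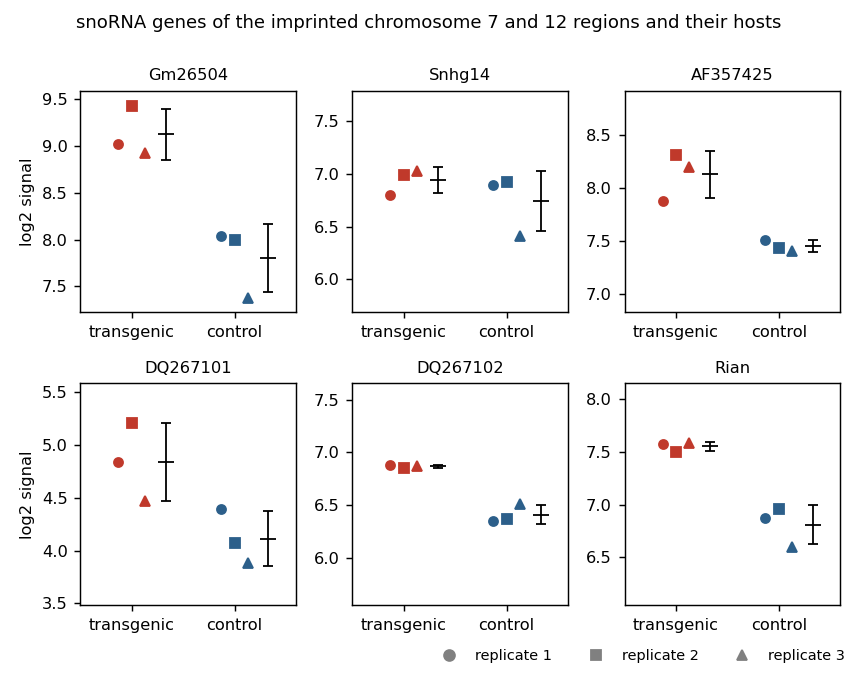
Log2 signal (y axis of each panel, each spanning its own range) of the 4 called small nucleolar RNA genes of the imprinted regions (Gm26504, AF357425, DQ267101 and DQ267102) and the hosts Snhg14 and Rian, on 3 transgenic arrays (left, red) and 3 control arrays (right, blue), with mean ± SD as black bars. Transgenic points are above all control points in every panel but Snhg14, where the groups overlap.

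None of the measured core proteins that bind small nucleolar RNAs passed the test, and 0 of these 8 had an unadjusted p under 0.05 in limma. Of the 4 measured box C/D core proteins 0 were called, with log2 differences of 0.11 for Snu13, 0.09 for Nop58, -0.01 for Nop56 and -0.11 for Rrp9, the protein of the U3 particle. Of the 4 H/ACA core proteins 0 were called either, with 0.10 for Nhp2, 0.05 for Nop10, -0.11 for the pseudouridine synthase Dkc1 and -0.16 for Gar1. The medians of both lists were 0.04 and -0.03, beside -0.03 over all genes. Fibrillarin (Fbl) had no probe of its own.

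Of 12 assembly factors 1 was higher (8.33%, against 5.35% of all genes) and 0 lower, with a median of 0.10. That gene was Shq1, the chaperone that holds dyskerin before assembly, with 6.56, 6.75 and 6.60 in transgenic hearts against 6.28, 6.26 and 5.91 in control hearts (log2 difference 0.49, adjusted p = 0.0321). The other genes with the smallest p-values were Pih1d1 at 0.30, Nufip1 at 0.29 and the cap methylase Tgs1 at 0.27, with adjusted p-values of 0.0664, 0.0764 and 0.112. Of 8 processing and decay genes 1 was higher (12.5%, against 5.35% of all genes) and 0 lower. Npm1, which encodes nucleophosmin, had 9.81, 9.61 and 9.67 in transgenic hearts against 9.40, 9.23 and 9.04 in control hearts (0.47, adjusted p = 0.0292). The polymerase Tent4b at 0.26, the exonuclease Xrn1 at 0.24 and the deadenylase Parn at 0.20 did not pass the test.

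Of 20 host genes in a list of mostly noncoding spliced hosts, 5 were higher and 0 lower (Snhg1, Rian, Snhg20, Snhg5 and Snhg3). That is 25% higher, against 5.35% of all genes. A difference above 0 was found for 18, against 43.3% of all genes, and the median log2 difference was 0.31. Snhg20 had 8.23, 8.30 and 8.09 in transgenic hearts, against 7.34, 7.75 and 7.49 in control hearts (0.68, adjusted p = 0.0085). Snhg5 had 7.61, 7.54 and 7.08 in transgenic hearts, against 6.66, 6.88 and 6.67 in control hearts (0.68, adjusted p = 0.0199). Both were apart between groups. The calls of Snhg1, Snhg3 and Rian were already given above, so this list overlaps the hosts and is not a separate set. Without control 3, 4 of the 58 genes of the protein, RNA and host lists together were called higher, beside 8 with it. Over all genes 4.37% were then called higher.

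The related RNAs of the Cajal body, which guide the modification of spliceosomal RNAs, had log2 differences above 0 in 5 of 5 genes, against 43.3% of all genes. Of these 5 genes 1 was called (20%, against 5.35% of all genes called higher). Scarna17 had 11.50, 11.53 and 11.35 in transgenic hearts, against 11.08, 11.14 and 11.15 in control hearts (0.34, adjusted p = 0.0406). Scarna10 at 0.38, Scarna6 at 0.61 and Scarna2 at 0.20 had adjusted p-values of 0.0803, 0.157 and 0.372. Among 5 other nucleolar or related RNAs 0 were called by limma. At an unadjusted p under 0.05, 3 were higher and 0 lower, against 11.9% of all genes higher. The log2 differences were 0.58 for the U3 gene Rnu3a, 0.37 for Rpph1, the RNA of RNase P, 0.32 for Rprl2 and -0.11 for the telomerase RNA Terc.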

How the data were processed

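Mouse hearts were measured on 6 Affymetrix arrays, 3 per group, grouped by the genotype in the labels. The values deposited by the authors are log2 expression values, made with oligo, RMA and limma per the submitters' processing notes, which give no versions. For background correction, probe filters and detection calls the sources used here give nothing, so low values may be background. Precision is limited by the number of arrays. The table holds 41345 probes, 23521 with 1 gene symbol in the platform annotation, and 22180 genes after the brightest probe of each gene was kept.

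All genes were fitted in R 4.3.3 by lmFit and eBayes of limma 3.58.1, without covariates (4 residual degrees of freedom before moderation), with Benjamini-Hochberg adjustment and a threshold of 0.05. The fit was tested on simulated data. Probes with several symbols were left out of the gene test and fitted among all probes. Hosts are the shortest longer RefSeq gene (GRCm38.p6) whose span contains the member; the table used gives no strand, so strand was not required, which departs from the rule as written. The names printed follow a rule: every called member, the 8 largest differences in each direction, the 5 highest signals per class, their measured hosts, and up to 4 genes of each list by p. Snord49a, Snord65, Snord22, Snora16a and the small nucleolar RNA genes outside the symbol rule were added after their values were seen. Members, lists and rules were chosen with earlier results of these data known. The alternatives were another probe rule, a filter on dim genes, 2 scalings, a variance trend, array weights, a replicate block and leaving out each array.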

Additional observations from a re-analysis of the deposited data

Results flagged for a closer look

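Probes annotated to several symbols, which the gene comparison leaves out, held 28 distinct sets of values with a Snora or Snord symbol. Of these, 2 were higher in transgenic hearts and 0 lower at an adjusted p under 0.05 over all probes, and 25 had a difference above 0. Over all 40540 distinct sets of values in that test 2.64% were called higher and 48.7% had a difference above 0. The members' own probes were part of the same limma test. Of the members called in the gene comparison, Snord52 and Snord104 passed there too (adjusted p = 0.0234 and 0.0291). The other called members did not, with adjusted p-values from 0.0585 (Snora75) to 0.117 (Snord49b). The counts of the 2 tests are thus not on the same footing. The 16 probes annotated jointly to Gm26504, Snord116l1 and Snord116l2 hold 1 set of values: 8.99, 9.47 and 8.92 in transgenic hearts, against 8.02, 7.96 and 7.33 in control hearts, a log2 difference of 1.36 ± 0.23 (SE, adjusted p = 0.0242 in limma). They cannot be told apart from the Gm26504 probes described above. The probe shared by Snord2 and Eif4a2 read 8.26, 8.09 and 7.92 in transgenic hearts, against 7.29, 7.41 and 7.18 in control hearts, a log2 difference of 0.80 ± 0.12 (adjusted p = 0.0186). The probe of Eif4a2 alone, a translation initiation factor, had a log2 difference of 0.12 (adjusted p = 0.451).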

How the results depend on the processing

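Under all 13 alternatives 0 of the small nucleolar RNA genes were called lower, and the median log2 differences of all members, Snora and Snord genes moved by less than the spread between replicates. The count of members called higher, 11, was 18 of 61 without the dimmest tercile of genes (fewer genes tested) and 18 of 73 with a variance trend, and 3 to 9 when single arrays were left out. The share of all genes called higher moved too, to 10.2%, 7.12% and 2.57% to 4.37%, beside 5.35%. The medians then lay at 0.221 to 0.352 for all members, 0.309 to 0.476 for Snora and 0.188 to 0.328 for Snord genes. For the protein, RNA and host lists the count of 8 was 13 without dim genes, 14 with the trend, 4 with arrays centred on their medians and 3 to 8 with single arrays left out (3 without transgenic 1 or 2, 4 without transgenic 3 or control 3, 5 without control 1); the cause was not tested. Of the called genes among all genes tested, 48.2% were higher, against 36.4% after quantile normalization and 38.1% after centring. With the replicate block 13 members were called, 9 of them among the 11. Samples with the same number did not deviate together (correlations of 0.016, -0.13 and 0.014), so the numbers were not taken as pairs. Over single genes and settings, 319 results kept their side of the threshold, 42 lost a call, 14 gained one and 0 called values changed sign. The uncalled difference of Snord13 moved to -0.15 without control 3. Uncalled differences near 0 of Snora2b, Snora23, Snora34, Snora61, Snord82 and Snord110 also changed sign in some settings, each moving by less than its SE in the main fit. Snord115 and Snord116 medians could not be computed under any setting, with 0 members.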

Other observations

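Other classes of RNA gene, by their RefSeq biotype, gave counts of their own in the same comparison. Of 473 microRNA genes outside the overexpressed cluster 49 were higher (10.4%) and 2 lower, with 61.5% above 0 and a median log2 difference of 0.06. Over all genes 5.35% were called higher and 43.3% were above 0. The share called higher was 10.6% among the Snord and 23.1% among the Snora genes, so that of the microRNA genes was near the Snord share. This holds for the called share alone: 91.5% of the Snord genes were above 0, with a median of 0.26. Signal levels were also unlike, as 300 of the 473 microRNA genes lay in the lowest-signal tercile, against 10 of the 47 Snord genes. Long noncoding RNA genes numbered 1926, of which 85 were higher (4.41%) and 32 lower, with a median of -0.03. Protein-coding genes numbered 18964, of which 1007 were higher (5.31%) and 1234 lower, with a median of -0.04. Of the small nuclear RNA genes other than members, 0 of 5 were called by limma, with a median of 0.15. At an unadjusted p under 0.05, 2 of them were higher, against 11.9% of all genes. Differences between these classes were not tested. Among the members, Spearman's rho of the log2 difference was 0.17 with the length of the gene and 0.12 with its signal, given as a description over 73 genes that share arrays.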
